A study of Arabidopsis thaliana with 54 samples.

Results

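The jasmonate synthesis enzymes described here are 9 genes of Arabidopsis thaliana, taken by gene ID from a table of raw read counts that holds 36632 genes. They are LOX2 (AT3G45140), LOX3 (AT1G17420), LOX4 (AT1G72520), AOS (AT5G42650), AOC1 (AT3G25760), AOC2 (AT3G25770), AOC3 (AT3G25780), OPR3 (AT2G06050) and JAR1 (AT2G46370). No expression value entered the choice, all 9 were found, and all 9 passed the filter on low counts, as did 20720 genes in all. RNA came from whole rosettes of Col-0, a single accession, in 54 libraries that each pooled material of 5 samples. The libraries form 18 groups of 3, from 3 conditions and 6 times at 4 °C, namely 0 h, 2 h, 4 h, 6 h, 12 h and 24 h. C28P plants had their first cold at an age of 28 days. C35P plants, a control for the added growth, had theirs at 35 days. C28PLT plants were chilled at 28 days for 3 days (priming), spent a lag of 7 days in the warm and were then chilled again (triggering), so that their series follows a second cold. By these durations C28PLT plants were 3 days older than C35P plants when it began. All groups share the genotype and a day of 16 h, and the light fell from 200 to 90 µmol on transfer to the cold.

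Jasmonates are oxidised fatty acids that act as hormones in wounding, defence and stamen development. Lipoxygenases (LOX) of the chloroplast oxygenate linolenic acid, allene oxide synthase (AOS) and the allene oxide cyclases (AOC) turn the product into OPDA, and OPR3 reduces OPDA in the peroxisome, where its side chain is then shortened by beta-oxidation. JAR1 joins the finished jasmonic acid to isoleucine, and this conjugate is the form that the receptor COI1 and the JAZ repressors perceive. In leaves the genes of the pathway are known to respond to their own product, to wounding and to touch, and their levels are also known to change over the day.

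The genes lie at separate loci apart from the cyclases. On the RefSeq assembly TAIR10.1, AOC1 (chr3:9403779-9405338), AOC2 (chr3:9406669-9408071) and AOC3 (chr3:9409160-9411090) stand head to tail on the plus strand within 7312 bases, with gaps of 1330 and 1088 bases. LOX2 lies at chr3:16525245-16529352, LOX3 at chr1:5977323-5981521, LOX4 at chr1:27308513-27312756 and JAR1 at chr2:19033586-19036683, all on the plus strand. AOS, a gene of 1 exon, lies at chr5:17097564-17099595 and OPR3 at chr2:2359114-2362375, both on the minus strand. None of the 9 overlaps another annotated gene (0 overlaps). Coding sequences of AOC1 and AOC2 were 90.3% identical, those of AOC1 and AOC3 82.7%, those of AOC2 and AOC3 82.4%, and those of LOX3 and LOX4 80.6%. No stretch of 75 bases was shared between transcripts of any such pair (0 shared windows), and of 50 bases AOC1 shared 2.1% of its windows with AOC3. How reads with several possible origins were counted is not given in the sources used here, so the split between AOC1, AOC2 and AOC3 carries that uncertainty.

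The sequences before the start of 4 genes are shown, those of the 3 cyclases and that of AOS. The cyclases, though neighbours, changed in their ratios to one another late in the cold. The course of AOS was not tested against theirs. Each sequence covers the 250 bases before the annotated start, read from TAIR10.1 on the strand of the gene. In AOC1 (chr3:9403529-9403778) and AOC2 (chr3:9406419-9406668) the capitals mark a run of 19 bases common to both, the longest run shared by any pair of the 9 windows, which begins at position -117 in AOC1 and -19 in AOC2. In AOC3 (chr3:9408910-9409159) they mark a CCGAC core at -168, and in AOS (chr5:17099596-17099845, minus strand) the G-box CACGTG at -6.
AOC1: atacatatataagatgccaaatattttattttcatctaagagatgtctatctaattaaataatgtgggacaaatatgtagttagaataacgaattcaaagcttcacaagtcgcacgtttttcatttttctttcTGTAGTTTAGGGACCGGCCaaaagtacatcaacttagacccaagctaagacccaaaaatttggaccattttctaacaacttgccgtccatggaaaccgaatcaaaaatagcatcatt
AOC2: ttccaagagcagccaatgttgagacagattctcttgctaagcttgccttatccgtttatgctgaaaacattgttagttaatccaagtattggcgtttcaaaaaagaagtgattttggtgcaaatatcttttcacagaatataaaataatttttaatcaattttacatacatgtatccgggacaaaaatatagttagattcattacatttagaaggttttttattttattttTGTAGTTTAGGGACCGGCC
AOC3: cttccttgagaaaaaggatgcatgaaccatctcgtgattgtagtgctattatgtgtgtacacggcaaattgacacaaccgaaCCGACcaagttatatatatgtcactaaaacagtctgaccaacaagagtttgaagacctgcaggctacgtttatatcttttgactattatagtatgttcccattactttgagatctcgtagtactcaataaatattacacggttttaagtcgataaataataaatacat
AOS: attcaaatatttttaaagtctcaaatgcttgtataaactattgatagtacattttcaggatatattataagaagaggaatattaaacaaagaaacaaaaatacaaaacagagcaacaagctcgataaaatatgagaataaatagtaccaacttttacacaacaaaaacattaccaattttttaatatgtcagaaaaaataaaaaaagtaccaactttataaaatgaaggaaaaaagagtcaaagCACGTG
On both strands, CACGTG, which MYC factors of the jasmonate pathway are known to bind, was found in 1 of the 9 windows, that of AOS, and in 6.5% of the windows of 27443 coding genes. CCGAC, the core bound by the CBF cold factors, was found in 1 of 9, that of AOC3, against 12.0% of coding genes. TTGAC, the core bound by WRKY factors, was in 6 of 9 against 44.9%, and it did not overlap the capitals of AOC3 or AOS. GCCGCC was in 0 of 9 against 1.9%. Such matches describe letters only.

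Values are CPM, counts scaled to a common library size with the TMM factors, with n = 3 libraries per group. Replicates 1, 2 and 3 are the independent experiments 1, 2 and 3. Library totals ran from 23408399 to 34452480 counts, and the 9 genes had between 52 counts (AOC3) and 48738 counts (AOS) in a library, the lowest of which carries the largest counting error. Of the leaf markers, RBCS1A, a subunit of the carbon-fixing enzyme Rubisco, ran from 18600 to 54500 CPM, and the root hair marker EXPA7 was at 0 in 49 of the 54 libraries. In whole rosettes, fewer cells of a type and less RNA per cell cannot be told apart. Between 2 and 12 h there is no library from warm plants at the same hour, so time in the cold and time of day cannot be told apart there, whereas 0 h and 24 h share the hour. Since the light fell with the transfer, cold and lower light cannot be told apart in any comparison with 0 h.

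A gene is said to have risen or fallen where its Benjamini-Hochberg adjusted p over all 20720 genes was under 0.05 in edgeR's quasi-likelihood test, which fitted the 18 groups without a block. SE is the standard error of a log2 fold change. Because the libraries of an experiment deviated together within a condition, a fit with a term for each condition and experiment (the blocked fit) is given wherever it changes a call. Each share in percent after a count of enzymes is that of all tested genes called in the same direction by the same fit.

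Per kilobase of transcript, AOS had the highest median of the 9 enzymes, of 370.0 CPM per kb over the 54 libraries. AOC2 followed at 187 CPM per kb, then AOC1 at 76.0, LOX2 at 47.2, OPR3 at 33.3, JAR1 at 13.6, AOC3 at 5.22, LOX3 at 4.595 and LOX4 at 2.53 CPM per kb. Of 2 neighbours in this order the higher was above the next in 43 of 54 libraries for AOS over AOC2, in 54 of 54 for AOC2 over AOC1, in 53 of 54 for OPR3 over JAR1, and in 47 of 54 each for JAR1 over AOC3 and LOX3 over LOX4. At 24 h the order of the first pair was the other way, with group means for AOC2 against AOS of 173 against 143 CPM per kb in C28P, 240 against 153.5 in C35P and 457 against 277 in C28PLT. The step from AOC3 to LOX3 held in only 32 of 54, and those from LOX2 to OPR3 and from AOC1 to LOX2 in 37 and 39. Whether neighbours in this order differ was not tested.

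In the first cold of C28P plants most enzymes had fold changes above 0 early and below 0 after a day, and few were called. The median log2 fold change of the 9 was 0.68 at 2 h, 0.88 at 4 h, 0.87 at 6 h, -0.37 at 12 h and -1.20 at 24 h, whereas that of all tested genes stayed between -0.02 and 0.05 in all 15 comparisons with 0 h. At 2 h 0 of 9 were called (all genes: 0.183% risen, 0.208% fallen), with 2 higher and 0 lower at an unadjusted p under 0.05 (2512 of 20720 genes in either direction) and 0 called by DESeq2. JAR1 rose at 4 h as 1 of 9 (4.03% risen, 3.88% fallen) and at 6 h as 1 of 9 (8.38% risen, 9.71% fallen). LOX4 fell at 12 h as 1 of 9 (10.7% risen, 10.5% fallen), and AOS fell at 24 h as 1 of 9 (13.9% risen, 15.3% fallen). These shares lie near those of all genes from 6 h on. The blocked fit called 1, 3, 3 and 1 risen at 2, 4, 6 and 12 h (0.956%, 6.93%, 12.8% and 14.8%), and 2 and 5 fallen at 12 and 24 h (14.6% and 19.7%).

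In the first cold of C35P plants the course was similar in direction. The median log2 fold change was 0.65 at 2 h, 0.83 at 4 h, 0.59 at 6 h, 0.08 at 12 h and -0.84 at 24 h. At 2 h 0 of 9 were called (1.42% risen, 0.541% fallen), with 2 higher and 0 lower at an unadjusted p under 0.05 (1957 of 20720 genes) and 0 called by DESeq2. At 4 h 1 of 9, JAR1, rose (5.65% risen, 4.61% fallen), and at 6 h 0 of 9 were called (8.92% risen, 8.57% fallen), with 1 higher unadjusted (5826 of 20720 genes in either direction) and 0 by DESeq2. AOC2 rose at 12 h as 1 of 9 (12.6% risen, 12.5% fallen), and LOX4 and AOS fell at 24 h as 2 of 9 (14.7% risen, 14.0% fallen). The blocked fit called 2, 5, 5, 2 and 1 risen from 2 to 24 h (2.54%, 7.91%, 11.7%, 16.0% and 18.6%), and 1 and 4 fallen at 12 and 24 h (17.0% and 19.1%).

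In the second cold of C28PLT plants up to 4 of the 9 enzymes rose at a time, and 0 of 9 fell at any time. The median log2 fold change was 0.98 at 2 h, 1.53 at 4 h, 1.895 at 6 h, 0.82 at 12 h and 0.45 at 24 h, and all 9 fold changes were above 0 from 2 to 12 h. At 2 h 0 of 9 were called (2.22% risen, 0.555% fallen), although 4 were higher at an unadjusted p under 0.05 (2303 of 20720 genes in either direction) and DESeq2 called 2. At 4 h 3 of 9 rose (7.51% risen, 5.22% fallen): LOX3, AOC2 and OPR3. At 6 h 4 of 9 rose (9.7% risen, 8.22% fallen), these 3 and JAR1. AOC2 alone rose at 12 h (14.1% risen, 12.5% fallen) and at 24 h (14.6% risen, 11.3% fallen). The blocked fit called 5, 7, 7, 3 and 2 of 9 risen from 2 to 24 h (4.3%, 11.0%, 13.1%, 18.1% and 19.1%). None was lower at an unadjusted p under 0.05 (0 of 45 tests), and DESeq2 called 0 fallen.

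**Figure D1:**
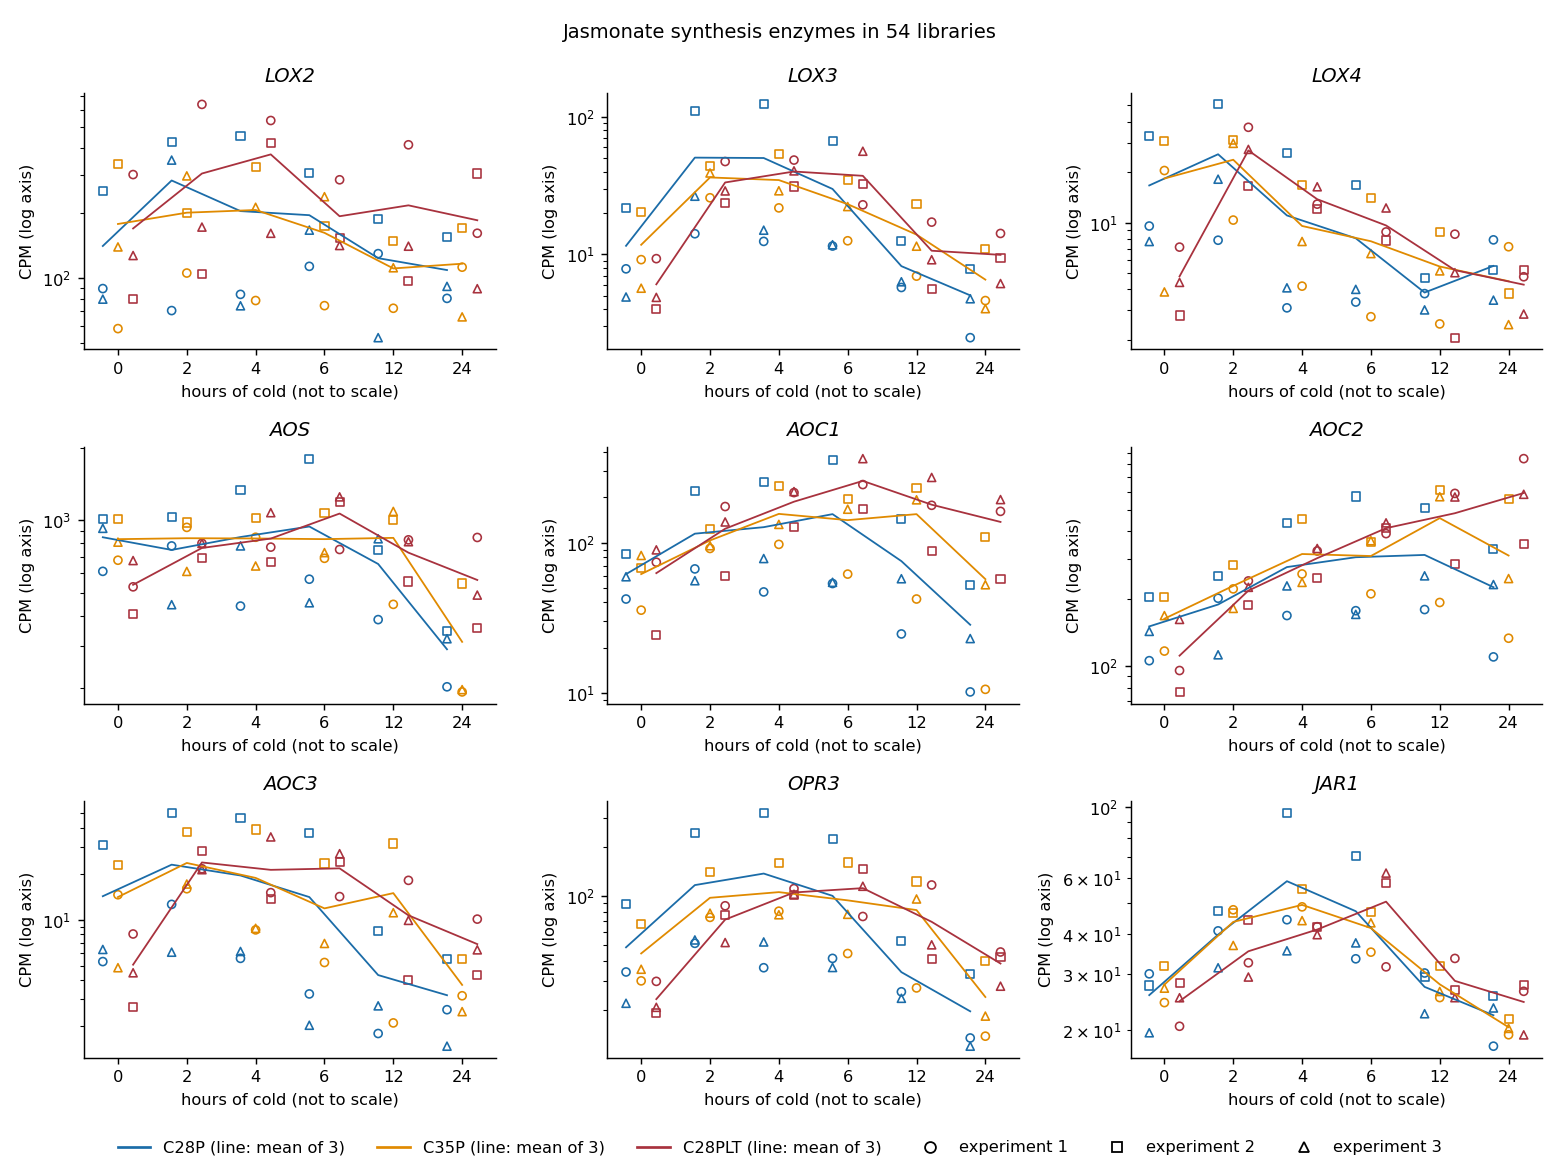
CPM on a log axis against hours of cold for each enzyme; points are libraries, shaped by experiment, and lines join the means of 3. LOX3, OPR3 and JAR1 peak between 2 and 6 h, while AOC2 of C28PLT plants goes on to 594 CPM at 24 h.

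The lipoxygenases LOX2, LOX3 and LOX4 take the first step. LOX3, which is known to act with LOX4 in stamen development, had the largest called rises of the 9. Before the second cold LOX3 stood at 9.32, 4.00 and 4.87 CPM in experiments 1, 2 and 3. It stood at 47.4, 23.8 and 29.0 CPM after 2 h, at 48.6, 31.2 and 40.5 CPM after 4 h and at 23.0, 32.7 and 56.3 CPM after 6 h. All 9 of these later libraries were above the 3 at 0 h. LOX3 rose 6.63-fold at 4 h (log2 2.73, SE 0.781, edgeR adjusted p = 0.0142) and 6.16-fold at 6 h (log2 2.62, SE 0.778, edgeR adjusted p = 0.0133), while at 2 h the 5.52-fold difference was not called (edgeR adjusted p = 0.0795, blocked edgeR adjusted p = 6.29e-05). The 4 h call was lost without the library of experiment 2 or 3 at 0 h, and the 6 h call without these or that of experiment 3 at 6 h, with adjusted p up to 0.0757. The library sums of 10 touch and wound genes, given below, were higher after 2 h of this cold than at its start as well.

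In the first colds LOX3 was also higher at 2 and 4 h than at 0 h. In C28P it went from 7.86, 21.9 and 4.90 CPM at 0 h to 14.1, 111 and 26.5 CPM at 2 h and 12.4, 123 and 15.01 CPM at 4 h, so that it was higher in 3 of 3 experiments but the groups overlapped. In C35P it went from 9.16, 20.4 and 5.68 CPM to 25.8, 43.95 and 39.1 CPM at 2 h and 21.8, 53.4 and 29.0 CPM at 4 h, where the groups did not overlap. None of these was called without the block (edgeR adjusted p from 0.0801 to 0.451), and all of them were with it, at a log2 fold change of 1.86 and 1.64 in C28P (blocked edgeR adjusted p = 0.00667 and 0.0029) and of 1.768 and 1.601 in C35P (blocked edgeR adjusted p = 0.00351 and 0.00234). With the block LOX3 was also called higher at 6 h in C28P and C35P (blocked edgeR adjusted p = 0.028 and 0.0444) and lower at 24 h in C28P (log2 -1.045, blocked edgeR adjusted p = 0.032). The decline was steep between 6 and 12 h, when LOX3 fell by 1.47 on the log2 scale averaged over the 3 conditions (SE 0.43, edgeR adjusted p = 0.0136). That call was lost without the C28P library of experiment 2 at 6 h (adjusted p = 0.0951). Of the 4 leaf marker genes, 3 had fallen at 24 h in C28P, 2 in C35P and 2 in C28PLT (15.3%, 14.0% and 11.3% of all genes); their part in the results at 24 h was not tested. At 24 h LOX3 stood at 2.48, 7.87 and 4.76 CPM in C28P, at 4.62, 11.0 and 4.03 CPM in C35P and at 14.2, 9.43 and 6.14 CPM in C28PLT.

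LOX4, the closest relative of LOX3 among the 3, was below its start late in the first colds. C28P libraries held 9.54, 32.7 and 7.71 CPM at 0 h and 3.77, 4.70 and 3.02 CPM at 12 h, and the groups did not overlap. LOX4 thus fell by 2.12 on the log2 scale at 12 h (SE 0.773, edgeR adjusted p = 0.0445), a call lost without any library of 12 h or without experiment 2 at 0 h (adjusted p up to 0.376). C35P libraries held 20.4, 30.6 and 3.86 CPM at 0 h and 7.18, 3.78 and 2.46 CPM at 24 h, lower in 3 of 3 experiments though the groups overlapped. That fall was 2.03 on the log2 scale (log2 -2.03, SE 0.767, edgeR adjusted p = 0.0418) and was lost without experiment 1 or 2 at 0 h or experiment 2 or 3 at 24 h (adjusted p up to 0.183). In C28PLT, LOX4 was at 7.14, 2.79 and 4.40 CPM at 0 h and at 37.0, 16.5 and 27.3 CPM at 2 h, a 5.65-fold difference that was not called without the block (edgeR adjusted p = 0.0774, blocked edgeR adjusted p = 0.00537). By 6 h it was at 8.795, 7.82 and 12.2 CPM, and at 24 h at 4.75, 5.19 and 2.85 CPM. With the block LOX4 was called higher at 4 h in C28PLT (log2 1.625, blocked edgeR adjusted p = 0.0417) and lower at 12 h in C35P (log2 -1.755, blocked edgeR adjusted p = 0.0186). It also fell with the block from 2 to 4 h over the 3 conditions (log2 -1.26, SE 0.323, blocked edgeR adjusted p = 0.00549).

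LOX2, the most abundant of the 3 and known for the bulk of jasmonate made after wounding, was called in no comparison by either fit (0 of 15 against 0 h). Its libraries spanned 52.7 to 637 CPM with a median of 150 CPM. The highest was experiment 1 of C28PLT at 2 h, where the other libraries held 104.5 and 172 CPM. Group means lay between 108 CPM (C28P at 24 h, SD 40.0) and 373 CPM (C28PLT at 4 h, SD 193), and the latter was 2.21-fold above its 0 h (SE 0.752 on the log2 scale, edgeR adjusted p = 0.357), higher in 3 of 3 experiments.

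AOS, which alone makes the allene oxide for all of the pathway, was called in neither first cold up to 12 h and fell in both by 24 h. In C35P its mean was 833 CPM at 0 h and between 833 and 843 CPM from 2 to 12 h. It then dropped from 681, 1008 and 809 CPM at 0 h to 193, 545 and 197.5 CPM at 24 h. In C28P it dropped from 612, 1008 and 924 CPM to 203, 347 and 321 CPM. The groups did not overlap in either condition. AOS fell by 1.55 on the log2 scale in C28P (SE 0.442, edgeR adjusted p = 0.00707) and by 1.42 in C35P (SE 0.44, edgeR adjusted p = 0.0133). The first call was lost without experiment 1 at 24 h (adjusted p = 0.0514), the second without experiment 1 or 3 at 24 h (adjusted p up to 0.0919). From 12 to 24 h, over the 3 conditions, AOS fell by 1.00 (SE 0.252, edgeR adjusted p = 0.00733).

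In the second cold AOS had no call against 0 h without the block. C28PLT libraries held 528, 408 and 679 CPM at 0 h, 754.5, 1190 and 1248 CPM at 6 h and 846.5, 357 and 488 CPM at 24 h. The 6 h libraries were all above those of 0 h (log2 0.98, SE 0.436, edgeR adjusted p = 0.121, blocked edgeR adjusted p = 0.0197), and at 24 h the log2 difference from 0 h was 0.07 (SE 0.432, edgeR adjusted p = 0.929), with 1 of 3 experiments higher.

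Of the cyclases, which set the natural stereochemistry of the product, AOC2 rose from 4 h to 24 h of the second cold. C28PLT libraries held 95.4, 76.55 and 161.5 CPM at 0 h, 240, 187 and 225 CPM at 2 h, 327, 248 and 335 CPM at 4 h and 391, 413 and 437 CPM at 6 h. They went on to 591.5, 285 and 570 CPM at 12 h and 846, 350 and 586 CPM at 24 h. No library after 0 h lay below 187 CPM. AOC2 rose 2.73-fold at 4 h (log2 1.45, SE 0.497, edgeR adjusted p = 0.0465), 3.72-fold at 6 h (log2 1.895, SE 0.504, adjusted p = 0.00546), 4.34-fold at 12 h (log2 2.12, SE 0.508, adjusted p = 0.00152) and 5.34-fold at 24 h (log2 2.42, SE 0.513, adjusted p = 0.000404). The calls at 6, 12 and 24 h held without any 1 library. The 4 h call was lost without any library of 4 h or experiment 1 or 2 at 0 h (adjusted p up to 0.177).

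In the first colds AOC2 was higher than at 0 h in 3 of 3 experiments from 4 h on. C35P libraries went from 117, 203 and 168 CPM to 192, 612 and 571.5 CPM at 12 h, a 2.82-fold rise (log2 1.495, SE 0.498, edgeR adjusted p = 0.0228). The groups overlapped, and the call was lost without experiment 1 or 3 at 0 h or experiment 2 or 3 at 12 h (adjusted p up to 0.112). C28P libraries went from 106, 203 and 143 CPM to 179, 510 and 253 CPM at 12 h (log2 1.06, SE 0.493, edgeR adjusted p = 0.125, blocked edgeR adjusted p = 0.0144). The block also added rises of AOC2 at 6 h in C28P (blocked edgeR adjusted p = 0.034), at 4, 6 and 24 h in C35P (0.0257, 0.0198 and 0.0385) and at 2 h in C28PLT (0.041). At 24 h the means were 225 ± 112 CPM in C28P, 312 ± 219 CPM in C35P and 594 ± 248 CPM in C28PLT (SD, n = 3).

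AOC1, next to AOC2 on the chromosome, had its highest level at 6 h in C28P and C28PLT. In C28PLT it went from 74.1, 24.4 and 89.5 CPM at 0 h to 243, 167 and 362 CPM at 6 h and 161, 57.2 and 193 CPM at 24 h. The 6 h libraries were all above those of 0 h (log2 2.04, SE 0.784, edgeR adjusted p = 0.0653, blocked edgeR adjusted p = 2.63e-05), and at 24 h all 3 experiments were still higher (log2 1.13, SE 0.764, edgeR adjusted p = 0.292, blocked edgeR adjusted p = 0.0134). In C28P it went from 42.1, 83.7 and 59.3 CPM to 53.5, 356 and 54.4 CPM at 6 h and 10.2, 52.1 and 23.0 CPM at 24 h, lower in 3 of 3 experiments (log2 -1.12, SE 0.765, edgeR adjusted p = 0.281, blocked edgeR adjusted p = 0.00237). In C35P it rose with the block at 4, 6 and 12 h, with log2 fold changes from 1.085 to 1.31 (blocked edgeR adjusted p = 0.0102, 0.0253 and 0.0179), and in C28PLT it also did so at 4 and 12 h (0.000635 and 0.00104).

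AOC3, the least abundant cyclase, had no call without the block in the 15 comparisons with 0 h. It was at 8.05, 2.66 and 4.49 CPM before the second cold and at 21.55, 28.3 and 21.25 CPM after 2 h (log2 2.23, SE 0.969, edgeR adjusted p = 0.321, blocked edgeR adjusted p = 0.00302). At 24 h it was below 0 h in 3 of 3 experiments of both first colds, at 2.57, 5.54 and 1.48 CPM in C28P against 5.31, 31.0 and 6.38 CPM, and at 3.17, 5.54 and 2.496 CPM in C35P against 14.6, 22.8 and 4.84 CPM. These falls were 1.83 and 1.85 on the log2 scale of the blocked fit (log2 -1.83 and -1.85, blocked edgeR adjusted p = 0.00592 and 0.00477), and were not called without it (edgeR adjusted p = 0.0897 and 0.132). The block also called AOC3 higher at 4 and 6 h in C28PLT (blocked edgeR adjusted p = 0.0029 and 0.0012) and lower at 12 h in C28P (0.0242).

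OPR3, the reductase that commits OPDA to jasmonic acid, rose at 4 and 6 h of the second cold, as LOX3 did. Before the second cold it was at 29.95, 19.2 and 20.8 CPM, after 4 h at 111, 101.5 and 102 CPM and after 6 h at 74.8, 145.5 and 115 CPM. The groups did not overlap, and the 3 libraries of 4 h lay within an SD of 5.2 CPM. OPR3 rose 4.5-fold at 4 h (log2 2.17, SE 0.717, edgeR adjusted p = 0.0374) and 4.79-fold at 6 h (log2 2.26, SE 0.719, edgeR adjusted p = 0.022). The 4 h call was lost without any 1 of the 6 libraries (adjusted p up to 0.134), and the 6 h call without experiment 2 or 3 at 0 h or experiment 2 at 6 h (adjusted p up to 0.0885). With the block both were called at adjusted p = 5.81e-06 and 1.46e-06. In C28P experiment 2 carried most of the rise, at 89.05 CPM at 0 h and 323 CPM at 4 h, while experiments 1 and 3 went from 34.2 and 21.98 CPM to 36.3 and 52.2 CPM. C35P libraries went from 30.2, 67.5 and 35.5 CPM to 80.6, 159 and 76.65 CPM at 4 h, without overlap. At 4 h neither first cold had a call without the block (edgeR adjusted p = 0.219 in C28P and 0.306 in C35P) and both had one with it (blocked edgeR adjusted p = 0.0162 and 0.00471). The block further called OPR3 higher at 2 and 6 h in C35P (blocked edgeR adjusted p = 0.0286 and 0.0221) and at 2 and 12 h in C28PLT (0.00138 and 0.000376). By 24 h OPR3 was at 13.5, 33.4 and 12.0 CPM in C28P and 13.8, 39.9 and 18.3 CPM in C35P, below 0 h in 3 of 3 experiments of each (blocked edgeR adjusted p = 0.00339 and 0.0199), and at 45.3, 42.3 and 28.0 CPM in C28PLT, above it in 3 of 3.

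JAR1, the enzyme that makes the active conjugate, had the smallest range of the 9, with its highest group mean 2.88 times its lowest. In C28P it went from 29.96, 27.5 and 19.6 CPM at 0 h to 44.3, 96.0 and 35.4 CPM at 4 h and 33.4, 70.5 and 37.5 CPM at 6 h. In C35P it went from 24.3, 31.8 and 27.0 CPM to 48.6, 55.35 and 44.0 CPM at 4 h. In C28PLT it went from 20.5, 28.0 and 25.2 CPM to 42.1, 41.9 and 39.8 CPM at 4 h and 31.5, 57.9 and 62.1 CPM at 6 h. None of these groups overlapped with 0 h. JAR1 rose 2.28-fold at 4 h in C28P (log2 1.19, SE 0.275, edgeR adjusted p = 0.00365), 1.83-fold at 6 h in C28P (SE 0.273, adjusted p = 0.0208), 1.78-fold at 4 h in C35P (SE 0.273, adjusted p = 0.0417) and 2.05-fold at 6 h in C28PLT (SE 0.274, adjusted p = 0.00508). At 4 h in C28PLT the 1.68-fold difference was called only with the block (edgeR adjusted p = 0.064, blocked edgeR adjusted p = 0.0123), as was the difference at 6 h in C35P (blocked edgeR adjusted p = 0.0455). The C28PLT call held without any 1 library. The C28P calls were lost without experiment 3 at 0 h or experiment 2 of the later time (adjusted p up to 0.234), and the C35P call without any library of 4 h or experiment 1 or 3 at 0 h (adjusted p up to 0.163). From 6 to 12 h JAR1 fell by 0.73 on the log2 scale over the 3 conditions (SE 0.157, edgeR adjusted p = 0.000728), in whichever library was left out.

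Of the steps between times, averaged over the 3 conditions, those after 6 h held the 3 calls made without the block, all of them falls. From 2 to 4 h 0 of 9 were called (all genes: 5.06% risen, 4.07% fallen) and from 4 to 6 h 0 of 9 (0.835% risen, 0.999% fallen), with 1 higher and 1 lower, then 0 and 0, at an unadjusted p under 0.05 (3975 and 2304 of 20720 genes in either direction). DESeq2 called 1 fallen in the first of these steps. From 6 to 12 h 2 of 9, LOX3 and JAR1, fell and 0 rose (8.49% risen, 8.01% fallen), and from 12 to 24 h 1 of 9, AOS, fell and 0 rose (3.76% risen, 4.47% fallen). The blocked fit called 1, 3 and 3 fallen from 2 to 4 h, 6 to 12 h and 12 to 24 h (6.91%, 11.5% and 7.95%), among them AOC1 and OPR3 in the last step by 1.105 and 1.15 (log2 -1.105 and -1.15, SE 0.211 and 0.188).

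**Figure D2:**
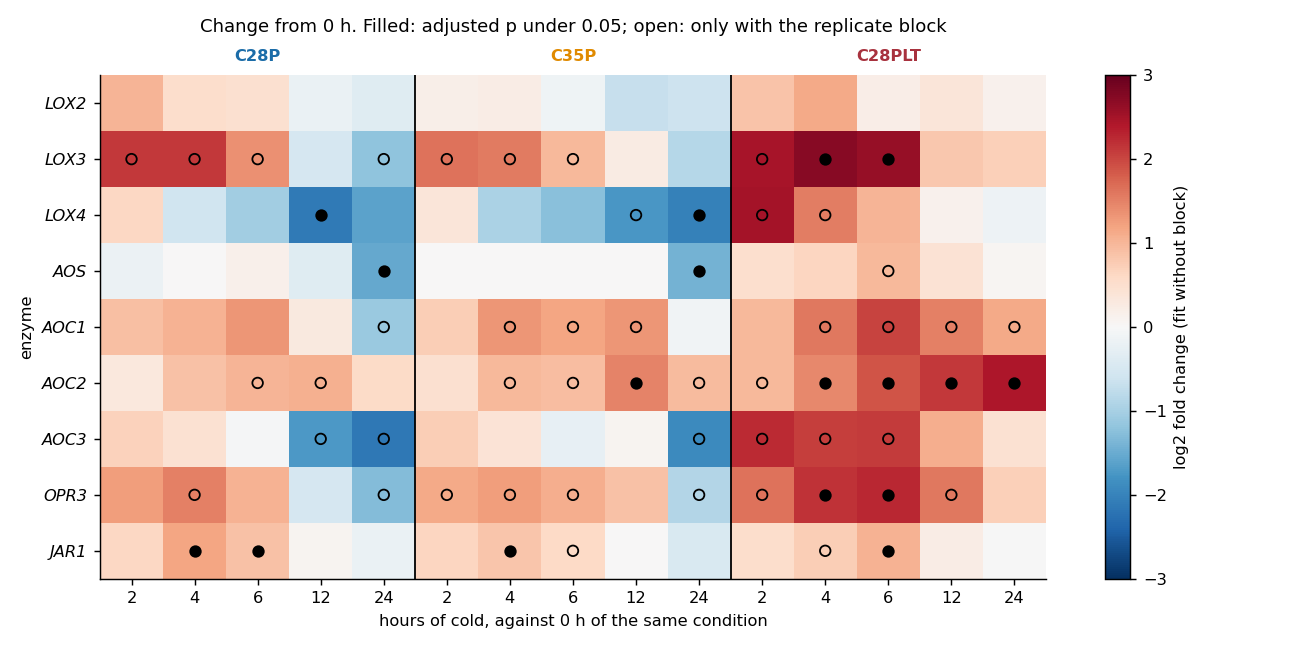
Log2 fold change from 0 h (colour) of each enzyme (rows) at each time and condition (columns). Filled circles mark calls without a block and open circles those called only with the term for condition and experiment; LOX3 and OPR3 carry filled circles at 4 and 6 h of C28PLT.

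Related enzymes were compared within libraries by their log2 ratio of CPM (prior count 2), with a two-sided exact permutation test over 9 libraries of a time and 9 at 0 h, labels permuted within conditions. Of 30 ratios 13 changed at an adjusted p under 0.05, where the smallest possible p is 0.00025. LOX3 gained on LOX2 2.67-fold at 2 h, 2.69-fold at 4 h and 2.43-fold at 6 h, each in 9 of 9 libraries (adjusted exact p = 0.005625, 0.0025 and 0.0175). LOX4 lost to LOX3 in 9 of 9 libraries at 4, 6 and 12 h, by 4.08-fold, 3.94-fold and 2.52-fold (adjusted exact p = 0.001875 each), and by 1.76-fold at 2 h, where 3 of 9 libraries were higher (adjusted exact p = 0.03225). That 2 h difference was 0.02 on the log2 scale in C28PLT and was lost when libraries were paired by experiment (adjusted exact sign-flip p = 0.103). LOX4 lost to LOX2 2.0-fold at 12 h (adjusted exact p = 0.0467, paired 0.0992).

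The shares of the lipoxygenases in their summed CPM per kb were not tested between conditions. LOX2 made up 93.2 ± 1.38% of the 3 genes before the second cold and 78.2 ± 11.5% after 6 h, when LOX3 had gone from 3.82 ± 0.869% to 17.4 ± 9.98% (SD, n = 3). At 24 h LOX2 was at 91.6 ± 3.22%. In the first colds the share of LOX2 moved from 0 to 6 h by less than its SD at 6 h, from 83.5 ± 2.13% to 85.7 ± 6.83% in C28P and from 81.7 ± 14.6% to 82.9 ± 5.73% in C35P. That of LOX3 went from 6.78 ± 1.15% to 11.1 ± 5.67% in C28P, and in C35P the experiments went from 10.6, 5.42 and 3.94% to 14.4, 16.1 and 8.61%.

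Among the cyclases AOC1, AOC2 and AOC3 the balance moved towards AOC2 late in the cold. The ratio of AOC2 to AOC1 had no call from 2 to 6 h (adjusted exact p from 0.374 to 0.608), rose 1.52-fold at 12 h in 8 of 9 libraries (adjusted exact p = 0.035) and 2.76-fold at 24 h in 9 of 9 (adjusted exact p = 0.0025). AOC3 lost to AOC2 3.47-fold at 12 h and 4.68-fold at 24 h, in 9 of 9 libraries each (adjusted exact p = 0.005625 and 0.001875), and to AOC1 2.28-fold at 12 h in 9 of 9 (adjusted exact p = 0.035). Shares were taken of the summed CPM per kb of AOC1, AOC2 and AOC3, without the cyclase AOC4. AOC2 went from 66.2 ± 2.22% at 0 h to 87.9 ± 2.92% at 24 h in C28P, from 67.7 ± 3.02% to 84.3 ± 5.36% in C35P and from 62.1 ± 10.2% to 79.8 ± 5.91% in C28PLT. AOC1 went from 29.6 ± 0.877% to 11.0 ± 2.91%, from 27.5 ± 5.93% to 14.7 ± 5.96% and from 35.6 ± 9.58% to 19.5 ± 6.01%. The gain of AOC2 on AOC1 at 24 h had the same sign in each condition, with log2 differences of 1.855 in C28P, 1.30 in C35P and 1.246 in C28PLT.

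**Figure D3:**
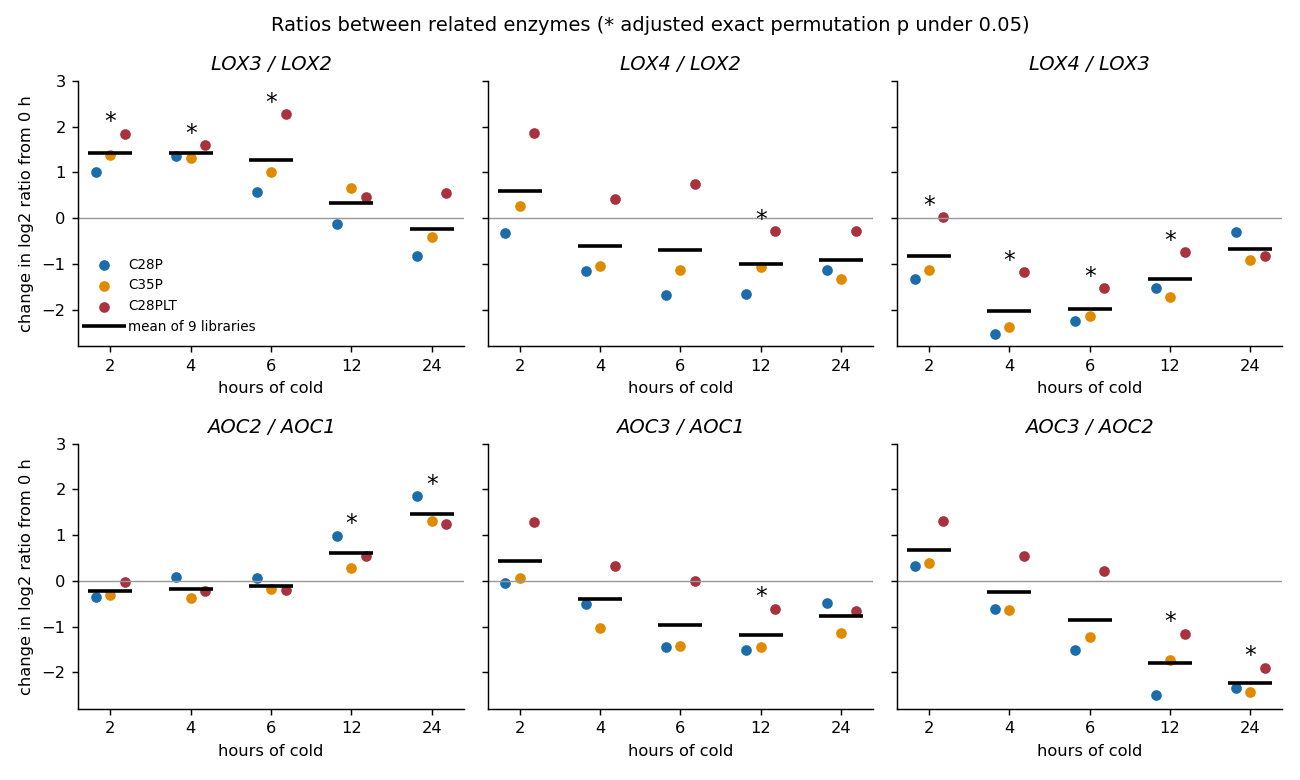
Change from 0 h in the log2 ratio of 2 related enzymes against hours of cold; dots are means of 3 libraries per condition and bars the mean of 9 libraries. LOX4 drops against LOX3 in all 3 conditions at 4 and 6 h, and AOC2 gains on AOC1 at 24 h.

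Whether an earlier cold changed the levels was asked by comparing C28PLT with C35P, which also differ by 3 days of age, and age by comparing C35P with C28P. In the first comparison 0 of 9 enzymes were called at any of the 6 times (all genes: 0.00483% at 0 h and 0.0% at each later time), with 0 higher and 1 lower of 54 tests at an unadjusted p under 0.05 and 0 by DESeq2. In the second 0 of 9 were called either (0.0241% at 0 h, 0.0% later), with 0 of 54 tests under an unadjusted 0.05 and 0 by DESeq2. Before the cold 8 of the 9 enzymes had a lower fitted level in C28PLT than in C35P, with a median log2 difference of -0.63. LOX4 had the largest difference, at 7.14, 2.79 and 4.40 CPM against 20.4, 30.6 and 3.86 CPM (log2 -1.94, SE 0.768, edgeR adjusted p = 1.0, unadjusted p = 0.0154). AOS (528, 408 and 679 against 681, 1008 and 809 CPM) and OPR3 (29.95, 19.2 and 20.8 against 30.2, 67.5 and 35.5 CPM), 2 of the 9, did not overlap between the conditions. The share of all genes without overlap was not counted, and neither enzyme was called. At 24 h 8 of 9 were higher in C28PLT, with a median log2 difference of 0.68 and differences of 0.85 for AOS (SE 0.435), 1.26 for AOC1 (SE 0.766) and 0.93 for AOC2 (SE 0.491), all at adjusted p = 0.818.

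The difference between responses, the change from 0 h in C28PLT minus that in C35P, was above 0 for 9 of 9 enzymes at 6, 12 and 24 h and for 8 of 9 at 2 and 4 h. Since both conditions' 0 h libraries enter all 5 times, these are not independent. None was called (0 of 45 tests, all genes 0.0% at each time), with 4 higher and 0 lower at an unadjusted p under 0.05 and 0 by DESeq2. At 24 h the median of the 9 was 1.48 on the log2 scale, with 1.48 for AOS (SE 0.614, unadjusted p = 0.0202, edgeR adjusted p = 0.967) and 1.48 for AOC2 (SE 0.693, unadjusted p = 0.0389, same adjusted p). Against C28P, a comparison added after the values had been seen, the median difference at 24 h was 1.835, and again 0 of 45 tests were called (all genes 0.0% at each time), with 7 higher and 0 lower unadjusted and 0 by DESeq2. There AOS differed by 1.61 (SE 0.615, edgeR adjusted p = 0.598) and AOC2 by 1.835 (SE 0.695, edgeR adjusted p = 0.592). Calls present in C28PLT and missing in C35P or C28P are therefore not shown to differ between the conditions.

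**Figure D4:**
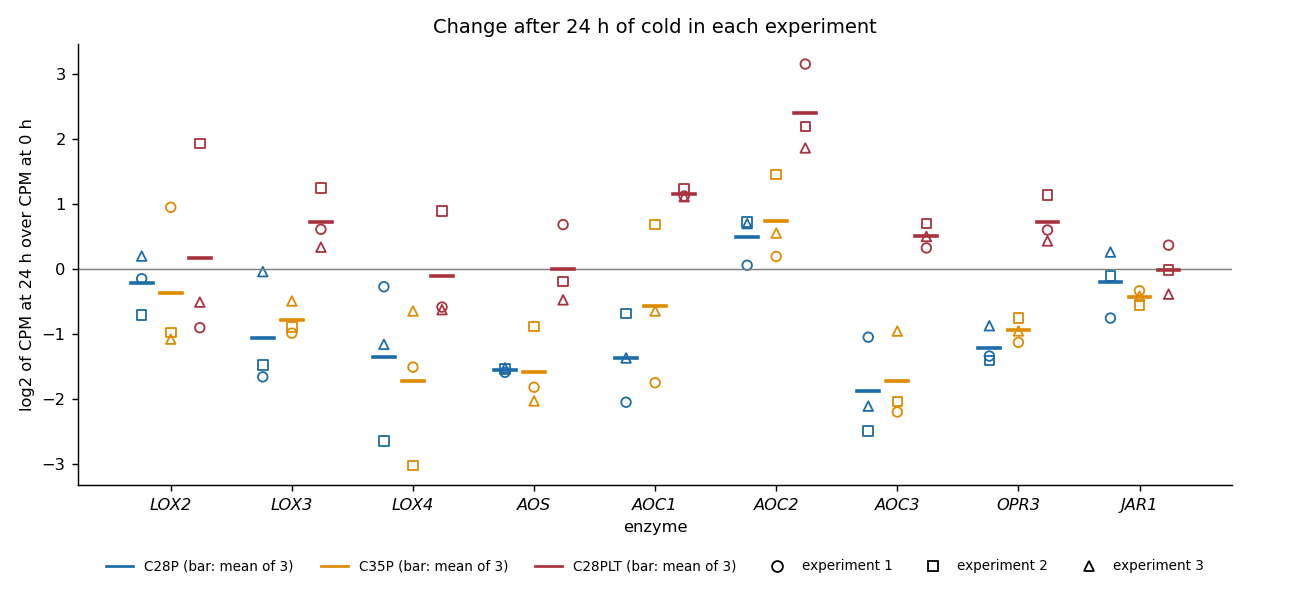
Log2 of CPM at 24 h over CPM at 0 h in the same experiment, for each enzyme and condition; points are experiments and bars the mean of 3. For LOX3, AOC3 and OPR3 the C28PLT points lie above 0 and all those of C28P and C35P below it.

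The experiments of a condition stood at different levels. In C28P experiment 2 held the highest of the 3 libraries in 50 of 54 combinations of enzyme and time, and in C35P in 47 of 54. In C28PLT experiment 1 was highest in 30 of 54, experiment 3 in 17 and experiment 2 in 7. Averaged over the 6 times, experiment 2 of C28P lay above its group means by 1.67 on the log2 scale for AOC3, 1.36 for LOX3 and 1.31 for OPR3, against 0.37 for JAR1. These means are over the same 9 genes and libraries that the tests above used.

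Markers that are not part of the pathway also varied between experiments. The summed CPM of 5 floral organ genes (AP3, PI, AG, SEP1 and SEP3) was low throughout, but in C28P it lay at 3.31 to 6.31 CPM in experiment 2 and at 0.796 to 1.945 CPM in experiments 1 and 3. In C35P it lay at 1.02 to 1.95 CPM in experiment 1 and at 2.105 to 5.115 CPM in experiments 2 and 3, and in C28PLT at 1.79 to 5.92 CPM. AP3 was at 0 in 15 and PI at 0 in 4 of the 54 libraries. The summed CPM of 10 touch and wound genes (among them TCH2, XTH22 and ERF104) at 0 h was 646, 1463 and 711 in C28P, 2176, 1121 and 218 in C35P and 402, 158 and 213 in C28PLT. After 2 h it was 518, 932 and 423 in C28P, 512, 957 and 949 in C35P and 814, 832 and 1218 in C28PLT, and at 24 h 74.8 to 201 in all 9 libraries. At 0 h these sums overlapped between C35P and C28PLT, and those of C28P were all above those of C28PLT. Of the 10, 5 had fallen at 24 h in C28P, 6 in C35P and 2 in C28PLT (15.3%, 14.0% and 11.3% of all genes), and 0, 0 and 3 had risen at 2 h (0.183%, 1.42% and 2.22%). The part of the floral and touch genes in the enzymes' results was not tested.

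**Figure D5:**
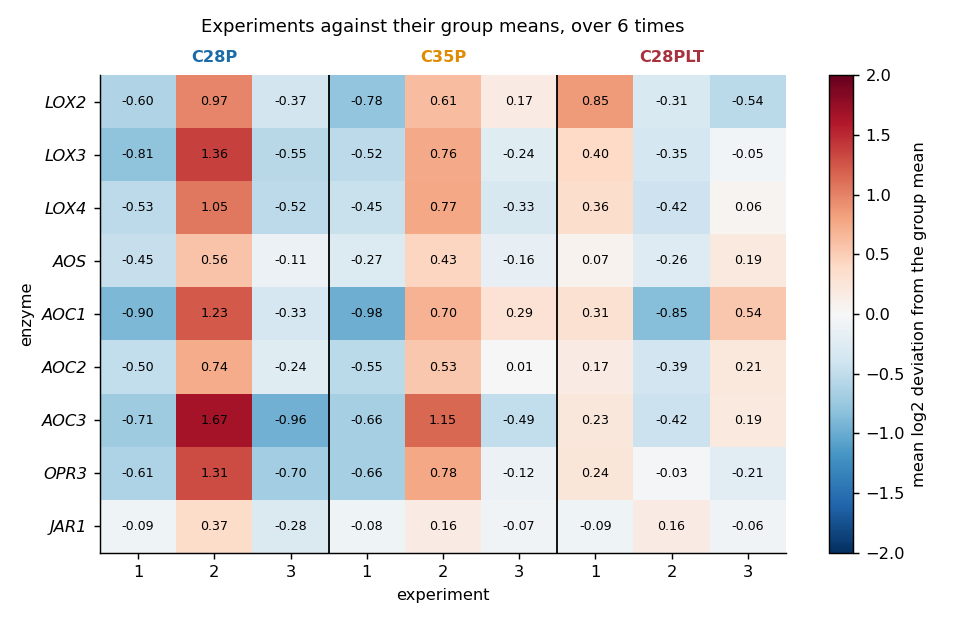
Mean log2 deviation of each experiment from its group means over 6 times (colour and printed value), by enzyme and condition. Experiment 2 lies above the group mean for all 9 enzymes in C28P and C35P, by 0.16 to 1.67.

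Other genes of the pathway, from lists drawn up with earlier results of these data known, were counted in the same comparisons. Of 16 other supply genes 14 were measured, and their median log2 fold change stayed between -0.30 and 0.26. In C28PLT 2 of 14 rose at 4 h and 3 at 6 h (7.51% and 9.7% of all genes), among them OPCL1, a CoA ligase that readies OPC for beta-oxidation, at 44.1 against 9.63 CPM at 4 h (log2 2.20, SE 0.612, edgeR adjusted p = 0.0116), and OPR1 at 43.0 against 19.1 CPM (log2 1.17, SE 0.363, adjusted p = 0.0246). In the first colds 3 of 14 fell at 24 h in each, against 15.3% of all genes in C28P and 14.0% in C35P. In the second cold 2 of 14 fell and 1 rose at 24 h (11.3% and 14.6% of all genes). At 24 h AOC4, the cyclase outside the cluster, fell by 1.34 in C28P (SE 0.359, edgeR adjusted p = 0.00423) and by 0.97 in C35P (SE 0.356, adjusted p = 0.0349). OPR1 fell by 1.40 and 1.58 in these conditions. FAD7, a chloroplast desaturase that supplies linolenic acid, fell by 0.45 and 0.69 in them. FAD7 had 4 calls among the 15 comparisons with 0 h, all of them falls. In the competing lipoxygenase and lyase branch, 1 of 3 genes, LOX1, fell in C35P at 12 h (log2 -2.37, SE 0.661, edgeR adjusted p = 0.00627) and in C28PLT from 6 to 24 h (log2 -3.02 at 24 h, SE 0.662, adjusted p = 0.000587). Of all genes 12.5% fell in the first of these, and 8.22%, 12.5% and 11.3% at 6, 12 and 24 h in C28PLT.

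Some genes that break down or modify jasmonates rose in the second cold. Listed genes without a name in the reference were left out, here and among the JAZ genes below. Of 8 named genes 1, 2, 3, 2 and 1 rose from 2 to 24 h in C28PLT (2.22%, 7.51%, 9.7%, 14.1% and 14.6% of all genes). The count at 24 h is near the share of all genes. The median log2 fold change of the 8 was 2.36 at 6 h. CYP94C1 and CYP94B3 oxidise the active conjugate. CYP94C1 went from a mean of 1.58 CPM at 0 h to 65.4 CPM at 2 h (log2 5.36, SE 1.08, edgeR adjusted p = 0.00191) and 75.9 CPM at 4 h (log2 5.58, SE 1.09, adjusted p = 0.000268), and CYP94B3 from 1.17 CPM to 34.1 CPM at 6 h (log2 4.88, SE 1.44, adjusted p = 0.0126) and 30.3 CPM at 24 h (log2 4.71, SE 1.43, adjusted p = 0.0118). CYP94C1 also rose in a first cold, at 4 h in C35P (log2 2.82, SE 0.944, edgeR adjusted p = 0.0477). It was 1 of 8 there (5.65% of all genes), and 1 of 8 fell in C35P at 12 h (12.5%). In C28P 2 of 8 fell at 24 h (15.3% of all genes), CYP94C1 by 2.97 (SE 0.976, adjusted p = 0.0188) and ILL6, an amidohydrolase that cleaves the conjugate, by 2.12 (SE 0.821, adjusted p = 0.0478).

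Of 12 named JAZ repressor genes, which are known targets and brakes of the signal, 3, 4 and 2 rose in C28PLT at 4, 6 and 12 h (7.51%, 9.7% and 14.1% of all genes) and 0 at 2 and 24 h (2.22% and 14.6%). JAZ1 went from 13.6 CPM to 140 CPM at 4 h (log2 3.37, SE 0.884, edgeR adjusted p = 0.0069) and 127 CPM at 6 h (log2 3.22, SE 0.879, adjusted p = 0.00681). In the first colds JAZ11 rose at 4, 6, 12 and 24 h in both conditions, by 0.65 to 1.09 on the log2 scale. It was the 1 gene of these 12 to rise there. Of all genes 4.03%, 8.38%, 10.7% and 13.9% rose at these times in C28P and 5.65%, 8.92%, 12.6% and 14.7% in C35P. In C28P 1 of the 12 fell at 12 h and 3 at 24 h (10.5% and 15.3% of all genes), in C35P 1 and 2 (12.5% and 14.0%). JAZ7 and JAZ8 fell at 24 h in both: JAZ7 went from 12.1 to 0.285 CPM in C28P (log2 -5.39, SE 1.41, adjusted p = 0.00353) and from 13.4 to 0.473 CPM in C35P (log2 -4.82, SE 1.36, adjusted p = 0.00636).

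Of 9 measured perception and transcription factor genes 0 to 3 were called in a direction at any time. In C28P 1, 1 and 3 rose at 6, 12 and 24 h (8.38%, 10.7% and 13.9% of all genes). In C35P 2 and 2 rose at 6 and 12 h (8.92% and 12.6%). In C28PLT 1, 2, 2 and 2 rose from 4 to 24 h (7.51%, 9.7%, 14.1% and 14.6%). At 6 h 1 fell in each of C28P, C35P and C28PLT (9.71%, 8.57% and 8.22%), and at 24 h 1 fell in C35P (14.0%). ANAC019, a NAC factor that also answers to abscisic acid, had 9 calls among the 15 comparisons with 0 h, all of them rises, up to 71.5 against 3.43 CPM at 24 h in C28PLT (log2 4.38, SE 1.06, edgeR adjusted p = 0.00163). MYC2, the main transcription factor of the response, had 1 call, a fall of 1.74 at 24 h in C35P (SE 0.59, adjusted p = 0.0233). MYC4 fell at 6 h in each condition, by 1.07 in C28P, 1.21 in C35P and 1.41 in C28PLT, and rose at 24 h in C28P (log2 1.245, SE 0.311, adjusted p = 0.00228). Of the 6 output genes, among them VSP1, VSP2 and PDF1.2, 0 were called in any of the 15 comparisons by edgeR. In these comparisons 0.183% to 14.7% of all genes rose and 0.208% to 15.3% fell. Their median log2 fold change lay between -1.30 and 0.95. At an unadjusted p under 0.05 there were 0 higher and 2 lower of the 90 tests, and DESeq2 called 0 risen and 1 fallen.

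The genes whose course was most like the mean standardised profile of the 9 enzymes were found over the 18 group means. They were TIFY7, known as JAZ9 (r = 0.975), JAZ10 (r = 0.973), TIFY10B, known as JAZ2 (r = 0.963), CYP94C1 (r = 0.958), CBSX5 (r = 0.955) and AT4G24350 (r = 0.955). Over the 54 single libraries JAZ10 came first (r = 0.95), followed by ILL6 (r = 0.947), and 4 of these 6 were again among the first 6. There CYP94C1 had rank 12 (r = 0.868) and CBSX5 rank 120 (r = 0.742). Within the 6 times of a single condition the correlations of these 6 genes ran from 0.906 to 0.999. Of the 9 enzymes themselves, OPR3 (r = 0.963) and LOX3 (r = 0.937) lay closest to the mean of the other 8 and AOC2 farthest (r = 0.181). LOX3 and OPR3 correlated at r = 0.942, and LOX4 and AOC2 at r = -0.361. Group means of a condition share experiments, and the conditions share their sampling times, so these values are descriptions.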

How the data were processed

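Per the labels, RNA of whole rosettes was sequenced with a strand-marking kit. Per the submitters' processing notes, Trimmomatic, STAR 2.7.9a, DESeq2 and the TAIR10 genome were used. The counting step, its strand setting and the handling of multiply mapping reads were not given in the sources used here. The deposited values are raw counts per gene, and 0 columns lacked a sample. The counts of 54 libraries (23408399 to 34452480 each) were filtered with filterByExpr (minimum count 10), scaled with TMM and tested with edgeR 4.0.16 (R 4.3.3) in 18 groups with 36 residual degrees of freedom. Of 20720 genes, those with a Benjamini-Hochberg adjusted p under 0.05 were called, and the test was checked on simulated counts. The 9 enzymes were named because they are the members, and list genes as examples of called genes. The members and lists were chosen with earlier results of these data known. All 91 list genes are in the table, and 85 were found by symbol in RefSeq. List genes without a name there were left out of the list counts. The summed level of the root markers is not reported here. Per the labels, replicate numbers mark independent experiments. Residuals of libraries with the same number correlated at a mean of 0.342 within a condition (135 pairs) and at -0.169 with different numbers (270 pairs); between conditions these were 0.0524 and -0.0269. DESeq2 1.42.0, other scalings, filters, blocks and left-out libraries were alternatives.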

Additional observations from a re-analysis of the deposited data

Results flagged for a closer look

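In 11 cases every experiment of a first cold lay below its own 0 h and every experiment of the second cold above it, in log2 CPM. They were picked out from all enzymes at all later times, against each first cold. The reverse pattern was not found, since no enzyme lay below 0 h in every experiment of the second cold at any time. The share of all genes with either pattern was not counted, so whether 11 is unusual was not tested. The differences between the mean changes of C28PLT and C28P were 1.79 for LOX3 at 24 h, 2.58 and 2.22 for LOX4 at 4 and 6 h, 0.865 for AOS at 12 h, 2.52 for AOC1 at 24 h, 2.52 and 2.39 for AOC3 at 12 and 24 h, and 1.93 for OPR3 at 24 h. Against C35P they were 1.52 for LOX3, 2.24 for AOC3 and 1.67 for OPR3, all at 24 h. For OPR3 at 24 h the experiments changed by -1.34, -1.41 and -0.874 in C28P, by -1.13, -0.759 and -0.954 in C35P and by 0.598, 1.14 and 0.43 in C28PLT. In edgeR's test of the difference between responses 0 of the 11 were called, with adjusted p from 0.706 to 1.0, and with a term for each condition and experiment the lowest was 0.055 (AOC1). The cases share the 0 h libraries of C28PLT.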

How the results depend on the processing

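Of the 20 calls of an enzyme, 3 held under every setting tried (AOC2 at 12 and 24 h of C28PLT, JAR1 from 6 to 12 h), and 0 changed direction. All 20 held with DESeq2, with the replicate block and with the block per condition and experiment, 15 without a filter, 16 in fits of only the groups compared, 31 of 60 with an experiment left out and 112 of 156 with a library left out. The count of calls moved more. With the replicate block per condition and experiment, risen calls went from 2 to 8 in C28P, from 2 to 15 in C35P and from 9 to 24 in C28PLT, and fallen calls from 2 to 7 in C28P, from 2 to 5 in C35P and from 3 to 7 in the steps. With the replicate block alone they were 14 risen in C28PLT and 5 fallen in the steps, and with a length and GC offset besides, 1 risen and 4 fallen in C35P and 6 fallen in the steps. DESeq2 called 5 fallen in the steps. Without a filter there were 1 fallen in C28P and 1 risen and 1 fallen in C35P. Fits of only the groups compared gave 0 risen in C28P, 1 fallen in C35P and 20 risen in C28PLT. Leaving out an experiment gave 0 to 2 risen and 0 to 1 fallen in C28P, 0 to 2 risen and 0 to 2 fallen in C35P, 2 to 10 risen in C28PLT and 1 to 5 fallen in the steps. The 13 ratio calls became 0 to 11 with an experiment left out and 7 without any 1 condition. The cause was not tested. Counts as low as 52 in a library limit AOC3.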
